A study of Homo sapiens with 4 samples.

Results

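The genes followed here are 34 genes of mitosis, taken by name from the 26485 gene names of the deposited tables: the spindle checkpoint proteins, the kinetochore and centromere proteins, the Aurora and Polo kinases with the chromosomal passenger complex, CDK1 with the mitotic cyclins and CDC25 phosphatases, the proteins that start anaphase, and the proliferation markers MKI67, TOP2A and FOXM1. They were read in SW1736 and 8505C, established human cell lines derived from anaplastic thyroid cancer (ATC). SW1736 wt and 8505C wt are the parental cells, which received no paclitaxel. SW1736-PTX and 8505C-PTX are their descendants selected during 6 months with paclitaxel raised from 1 nM to 1.5 µM and then kept in medium with 1.5 µM paclitaxel, so that the drug was present in the PTX cultures and absent from the wt cultures. One mRNA library per condition was sequenced, 4 libraries in all, and neither the labels nor the methods say whether a resistant line is a clone or a mixed population.

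Paclitaxel, a taxane, keeps microtubules from coming apart. Cells that enter mitosis with it build abnormal spindles, unattached kinetochores keep the spindle checkpoint on, and the checkpoint holds back CDC20, the activator of the anaphase-promoting complex, so that cyclin B and securin are not degraded and anaphase is delayed. Most genes of this machinery are transcribed in late S, G2 and M phase, bound by the DREAM complex when cells are quiescent and activated by MYBL2 and FOXM1 when they cycle, so their mRNA in a culture is widely used as a readout of how many cells are cycling.

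FPKM, the unit used below, is the number of aligned fragments scaled to the length of the gene and the depth of the library, and it allows levels of different genes to be set side by side. Depth was between 43.5 and 57.9 M reads, and each PTX library had more reads than the wt library of its line. All 34 genes were above 0.5 FPKM, the limit of the study, in all 4 libraries, from 3.14 FPKM for SKA1 in 8505C-PTX to 263 for CDC20 in 8505C wt. The lowest of these values still corresponds to 168 reads on each kilobase of transcript. Changes were computed as log2((PTX + 0.1)/(wt + 0.1)), and a gene was called when it changed by more than 1.5 on this scale, the other limit of the study. With 1 library per condition there was no test, and no difference could be set against the spread between cultures. From the reads alone, the standard error of a member's log2 fold change for 1 kb of transcript was at most 0.13.

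The library labelled SW1736-PTX has to be read with care. Of the thyroid and epithelial markers examined, PAX8, a thyroid transcription factor, was at 38.2 (wt) and 0.206 FPKM (PTX) for SW1736, and 0.123 (wt) and 0.146 FPKM (PTX) for 8505C. FOXE1, another thyroid factor, was at 26.6 (wt) and 0.511 (PTX) FPKM for SW1736 against 0.0443 (wt) and 0.178 (PTX) for 8505C, and KRT19, an epithelial keratin, at 266 (wt) and 0.535 (PTX) FPKM for SW1736 against 0 (wt) and 0 (PTX) for 8505C. NKX2-1, a thyroid and lung factor, showed the opposite order, with 0 (wt) and 36.3 (PTX) FPKM for SW1736 against 30.5 (wt) and 39.0 (PTX) for 8505C. In these 4 genes the library labelled SW1736-PTX stood with 8505C and not with its own parental line, and so the results for SW1736 are also given with 8505C wt as the reference of that library, which is then shared with the 8505C comparison. How the library came to differ was not tested. TG, TSHR and SLC5A5, genes of the mature thyroid, were at or close to 0 in all 4 libraries, as were EPCAM and CDH1 of epithelia and PTPRC and CD3E of blood cells. The other epithelial markers examined, the keratins KRT7, KRT8 and KRT18, were high in all 4 libraries, between 257 and 1437 FPKM. Of the mesenchymal markers, FN1 was at 1133 (wt) and 103 (PTX) FPKM for SW1736 against 91.7 (wt) and 270 (PTX) for 8505C. VIM was at 3684 (wt) and 1740 (PTX) FPKM for SW1736 against 1417 (wt) and 1321 (PTX) for 8505C. CDH2 was between 35.6 and 38.7 FPKM in all 4 libraries. Over all genes compared, the library labelled SW1736-PTX had a median absolute log2 fold change of 0.78 against SW1736 wt and 0.66 against 8505C wt.

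Levels of the mitotic genes were lower in both resistant lines. In the library labelled SW1736-PTX, 33 of the 34 genes were below SW1736 wt, with a median log2 fold change of -1.28, against 0.01 over all 14202 genes compared. In 8505C-PTX, 33 of 34 were below 8505C wt, with a median of -1.50, against 0.11 over 13794 genes. The same 33 genes were lower in both lines, while 32.7% of the genes compared in both were. CDC25B was the exception in both. Past the limit of 1.5, 8 genes were called lower in SW1736 (10.2% of all genes compared were) and 17 in 8505C (5.89% of all genes), and none was called higher. The genes called lower in both lines were 7, namely ZWINT, NDC80, SPC25, TPX2, CDCA8, MKI67 and FOXM1, where 2.41% of all genes compared were. With 8505C wt as the reference of the library labelled SW1736-PTX, NDC80 and TPX2, both at -1.47, and CDK1, at -1.34, were no longer called. CDK1 was called lower in SW1736 only, and BUB1, BUB1B, MAD2L1, CENPE, SKA1, PLK1, BIRC5, CCNA2, CCNB1 and CDC20 in 8505C only, a difference that was not tested. Several of the latter were also called lower in the library labelled SW1736-PTX when 8505C wt was its reference. These were MAD2L1 (-2.00), PLK1 (-1.89), CCNA2 (-1.66), BIRC5 (-1.63), CDC20 (-1.57) and CCNB1 (-1.52). TTK, called in neither line, was at -1.70 in that comparison. Many members lay close to the limit. BUB3, with -1.46 in SW1736, was just outside it, and CCNA2, with -1.54 in 8505C, just inside. Against 8505C wt, the library labelled SW1736-PTX had 12 of the 34 genes called lower (5.23% of all genes) and a median of -1.35, and again 33 genes were below the reference. In these bulk samples, fewer cycling cells and less mitotic mRNA per cell cannot be told apart.

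**Figure D1:**
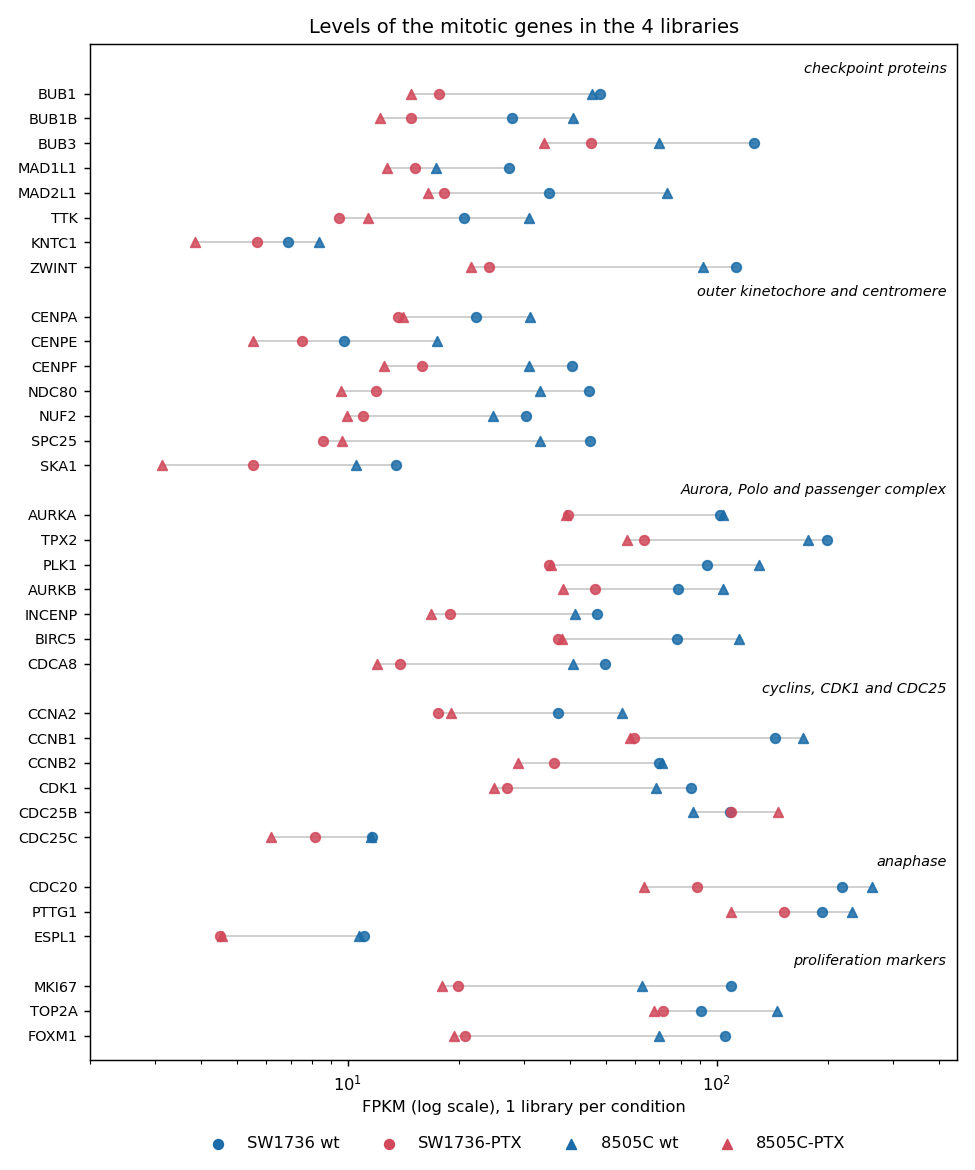
FPKM (log axis) of each of the 34 genes in the 4 libraries, grouped by role, with wt libraries in blue, PTX libraries in red, circles for SW1736, triangles for 8505C and a grey line over the range. In 33 genes both red points lie to the left of both blue points, and only CDC25B departs from this order. The share of all genes with this order was not counted.

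**Figure D2:**
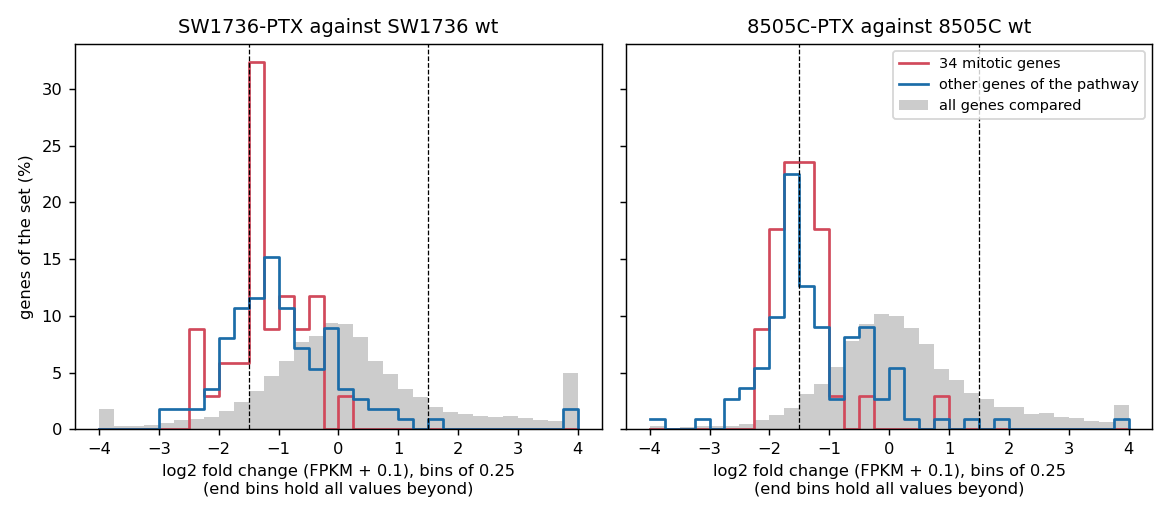
Distribution of log2 fold changes in each line, in percent of each set, for all genes compared (grey), the 34 mitotic genes (red) and 112 other genes of the pathway (blue), with dashed lines at 1.5 in either direction. The medians are -1.28 (SW1736) and -1.50 (8505C) for the mitotic genes and -1.07 and -1.48 for the other genes of the pathway, while the grey bars are centred near 0.

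Summed over the 34 genes, the level of SW1736 cells was 2446 FPKM (wt) and 1095 (PTX), and that of 8505C cells 2522 (wt) and 995 (PTX). In TPM, which sums to the same total in each library, they held 0.558% (wt) and 0.242% (PTX) of the SW1736 libraries and 0.577% (wt) and 0.222% (PTX) of the 8505C libraries. The wt lines were thus close to each other in total mitotic mRNA, and so were the PTX lines. For 33 of the 34 genes both PTX libraries were below both wt libraries. How many of all genes show this order was not counted, so the 33 have no share to be read against.

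Promoters of late cell cycle genes are known for a cell-cycle homology region, which the DREAM complex binds, and for CCAAT boxes before it, which bind NF-Y. RefSeq promoter windows (GRCh38.p14, from 250 bases before to 50 bases after a start site) were at hand for 27 of the 34 genes, all but AURKA, BIRC5, BUB3, FOXM1, KNTC1, TPX2 and TTK. The letters TTTGAA, the core of the homology region, were found on either strand in 19 of 27 genes (70.4%), against 18.2% of all 27305 genes with a window and 13.4% of the 9635 genes that were also compared in both lines. The letters CCAAT were found in 21 of 27 (77.8%), against 39.7% and 43.6%, and both motifs in 15 of 27 (55.6%), against 7.26% and 5.68%. The 89 further cell cycle genes with a window, from the lists described at the end, lay between, with TTTGAA in 42.7%, CCAAT in 60.7% and both in 25.8%. Within the first listed window of each gene, 15 of the 18 genes with TTTGAA had a match that started at most 50 bases before the start site or after it. TTCGAA, a variant of the homology region, was found in 3 of 27 genes (11.1%, against 1.82% of all genes and 2.40% of those compared), and any of the E2F letters TTTCCCGC, TTTGGCGC, TTTCGCGC and TTTGCCGC in 2 of 27 (7.41%, against 3.99% and 6.83%). A match is a description of letters and not a bound site, and the motifs can overlap.

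The following 5 stretches, each from 130 bases before to 20 bases after the start site, show the arrangement in ZWINT and MKI67, which were called lower in both lines, in PLK1 and CCNB2, where TTTGAA starts 29 bases before the start site, and in MAD1L1, which had neither motif. CENPE, the other member with neither, was called lower in 8505C, while MAD1L1 had the smallest decrease there. Capitals mark TTTGAA and CCAAT or their reverse complements.
ZWINT (chr10:56361240-56361389, minus strand): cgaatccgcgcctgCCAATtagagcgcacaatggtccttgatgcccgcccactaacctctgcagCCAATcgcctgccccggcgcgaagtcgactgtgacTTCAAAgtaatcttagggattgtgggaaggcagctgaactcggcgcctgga
MKI67 (chr10:128126404-128126553, minus strand): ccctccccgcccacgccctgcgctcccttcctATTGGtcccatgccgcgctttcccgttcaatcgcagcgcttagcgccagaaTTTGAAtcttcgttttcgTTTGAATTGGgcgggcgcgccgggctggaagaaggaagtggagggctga
PLK1 (chr16:23678759-23678908, plus strand): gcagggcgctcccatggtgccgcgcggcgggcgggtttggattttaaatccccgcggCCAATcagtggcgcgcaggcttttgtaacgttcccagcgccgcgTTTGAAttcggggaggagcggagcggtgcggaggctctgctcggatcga
CCNB2 (chr15:59105016-59105165, plus strand): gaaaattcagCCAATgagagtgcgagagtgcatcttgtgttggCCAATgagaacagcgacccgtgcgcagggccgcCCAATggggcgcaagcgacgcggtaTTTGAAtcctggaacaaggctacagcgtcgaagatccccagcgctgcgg
MAD1L1 (chr7:2232926-2233075, minus strand): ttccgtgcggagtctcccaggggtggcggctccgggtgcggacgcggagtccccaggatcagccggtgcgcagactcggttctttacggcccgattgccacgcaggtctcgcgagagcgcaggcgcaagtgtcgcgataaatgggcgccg

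In CCNB2 the CCAAT boxes shown start 120, 87 and 54 bases before the start site, at equal steps. MKI67 has TTTGAA 47 and 29 bases before it. No window of BUB1, MAD1L1, CENPE, AURKB, CCNA2, CCNB1, CDC25B or PTTG1 holds TTTGAA, a group with genes called lower in 8505C as well as CDC25B, which was not lower. Among them BUB1 and CDC25B hold the variant TTCGAA in a window, as does NDC80, which has TTTGAA as well. CDC25B also holds CCAAT, though not in its first listed window. Members with TTTGAA (19 genes) had a median change of -1.32 (SW1736) and -1.72 (8505C), and members without it (8 genes) of -0.79 and -1.49. In 8505C, 52.6% of the former and 50.0% of the latter were called lower, and in SW1736 31.6% and 0.0%. The 0.0% depends on the reference. With 8505C wt as the reference of the library labelled SW1736-PTX, CCNA2 (-1.66) and CCNB1 (-1.52), both without TTTGAA, were called lower. Of the members with TTTGAA, MAD2L1, PLK1 and CDC20 gained a call there, and NDC80 and CDK1 lost it. The shares by motif were not computed with that reference. Members with CCAAT had a median of -1.28 (SW1736) and -1.46 (8505C), and those without it of -1.09 and -1.68. Members with both motifs had a median of -1.32 (SW1736) and -1.46 (8505C), and the others of -0.995 and -1.55. With both motifs, 33.3% were called lower in SW1736 and 46.7% in 8505C, against 8.33% and 58.3% of the others. The order was thus not the same in the lines for CCAAT and for both motifs. Among all genes compared in both lines, the mitotic genes included, 12.4% of the 547 genes with both motifs were called lower in 8505C, and 4.80% of the 9088 others, and in SW1736 the shares were 10.8% and 7.41%. The map of motif positions orders the genes by their change in 8505C.

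**Figure D3:**
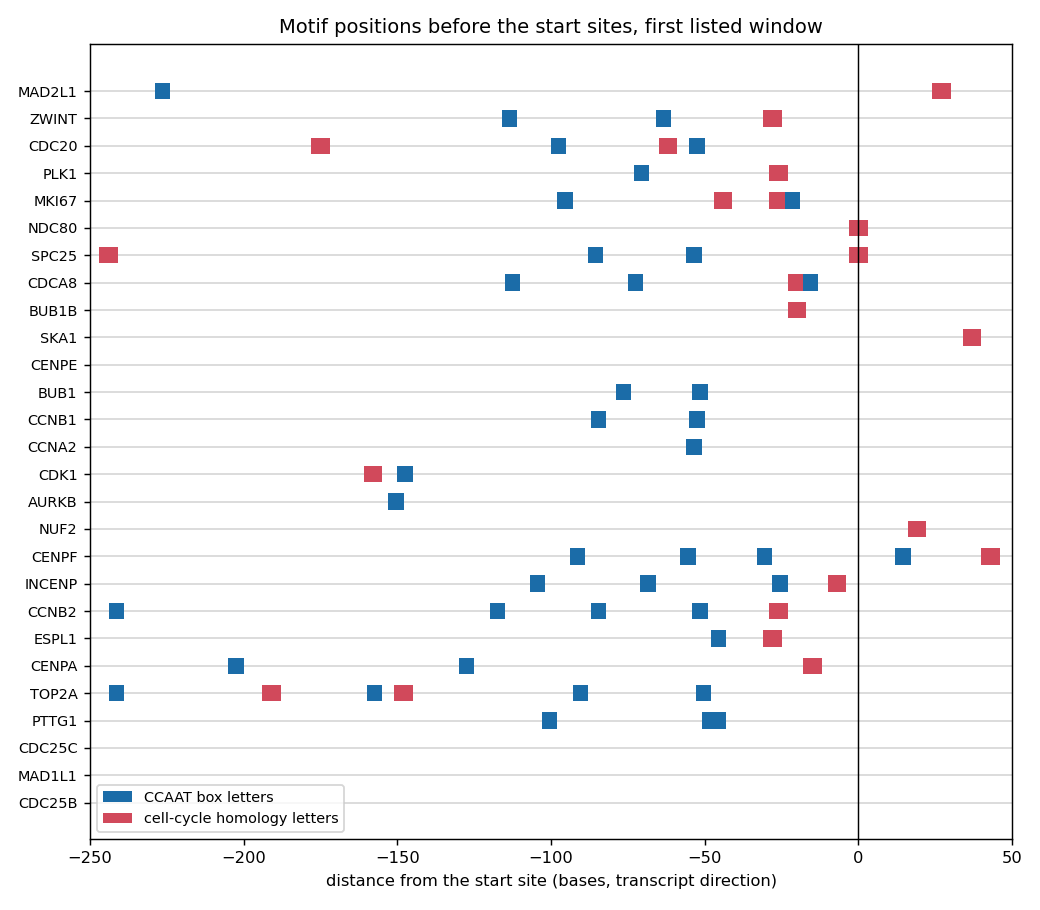
Positions of the cell-cycle homology letters (red) and CCAAT box letters (blue), on either strand, in the first listed window of the 27 genes, with distance from the start site in bases on the x axis and genes ordered from the lowest log2 fold change in 8505C at the top to the highest at the bottom. Red blocks lie mostly within 50 bases of the start site, in many genes with blue blocks before them. Among the genes with red blocks, BUB1B, NDC80, NUF2 and SKA1 have no blue block. In some, such as CDK1 and TOP2A, a blue block follows a red one.

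Of the checkpoint proteins, all 8 were lower in both lines, with median changes of -1.03 (SW1736) and -1.53 (8505C) on the log2 scale, and of -1.41 for the library labelled SW1736-PTX against 8505C wt. ZWINT (chromosome 10, bases 56357438 to 56361273, hg38), which links the KNL1 platform of the kinetochore to the checkpoint, was at 113 (wt) and 24.2 FPKM (PTX) for SW1736, and 91.7 (wt) and 21.6 FPKM (PTX) for 8505C, so that the wt levels were 4.66-fold (SW1736) and 4.24-fold (8505C) higher. Both PTX libraries were far below both wt libraries. MAD2L1 (chromosome 4, bases 120059424 to 120066858) encodes MAD2, the checkpoint effector that captures CDC20. It was at 35.2 (wt) and 18.3 FPKM (PTX) for SW1736, and 73.6 (wt) and 16.5 FPKM (PTX) for 8505C, log2 fold changes of -0.94 (SW1736) and -2.15 (8505C). The wt lines differed most from each other in this gene among the 34, by 1.06 on the log2 scale, and the PTX libraries by only 0.15. Against 8505C wt, the library labelled SW1736-PTX was at -2.00. MAD1L1 (chromosome 7, bases 1815792 to 2232948), which anchors MAD2 at the kinetochore, was at 27.4 (wt) and 15.2 (PTX) FPKM for SW1736 against 17.3 (wt) and 12.8 (PTX) for 8505C. Its log2 fold changes were -0.84 (SW1736) and -0.44 (8505C), close to MAD2L1 in SW1736 and smaller than MAD2L1 in 8505C. Against 8505C wt, MAD1L1 was at -0.18 in the library labelled SW1736-PTX. The ratio of MAD2L1 to MAD1L1 was 4.25 in 8505C wt and between 1.20 and 1.29 in the other 3 libraries.

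The kinases of the checkpoint were lower as well. BUB1 (chromosome 2, bases 110637698 to 110678107), the kinase that recruits the other checkpoint proteins, was at 48.4 (wt) and 17.7 (PTX) FPKM for SW1736 against 45.9 (wt) and 14.8 (PTX) for 8505C. TTK (chromosome 6, bases 80004605 to 80042527), also known as MPS1, the kinase that starts checkpoint signalling, was at 20.6 (wt) and 9.43 (PTX) FPKM for SW1736 against 30.9 (wt) and 11.3 (PTX) for 8505C. Both had PTX levels between 2.19 and 3.09 times below wt. BUB1B (chromosome 15, bases 40161009 to 40221136), the pseudokinase BUBR1 of the mitotic checkpoint complex, was at 27.8 (wt) and 14.8 (PTX) FPKM for SW1736 against 40.8 (wt) and 12.2 (PTX) for 8505C, log2 fold changes of -0.91 (SW1736) and -1.73 (8505C). BUB3, the adaptor of BUB1 and BUBR1, was at 126 (wt) and 45.7 (PTX) FPKM for SW1736 against 69.7 (wt) and 34.02 (PTX) for 8505C, and its decrease was larger in SW1736 than in 8505C, with log2 fold changes of -1.46 (SW1736) and -1.03 (8505C). This order depended on the reference, since BUB3 was at -0.61 in the library labelled SW1736-PTX against 8505C wt. KNTC1 (chromosome 12, bases 122527262 to 122626400), the ROD subunit of the complex that brings dynein to kinetochores, was the lowest of the 34 genes in both wt libraries, at 6.86 (wt) and 5.68 (PTX) FPKM for SW1736 against 8.35 (wt) and 3.85 (PTX) for 8505C. Its log2 fold change in SW1736, -0.27, was the smallest of the decreases in that line.

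**Figure D4:**
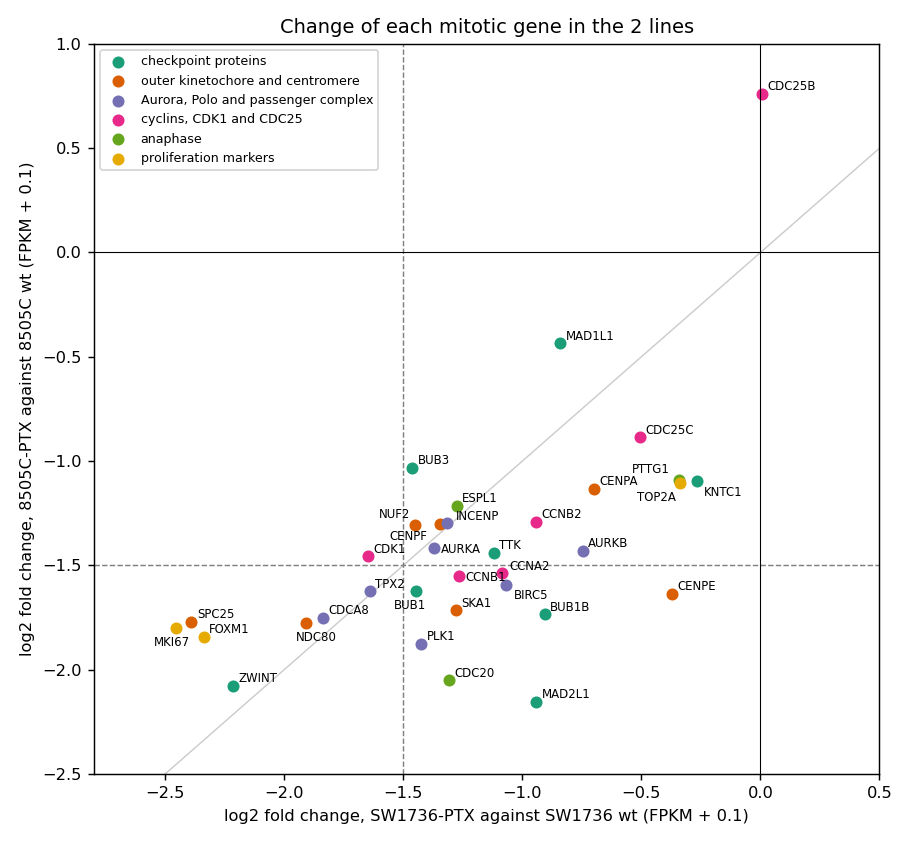
Log2 fold change of each of the 34 genes in SW1736 (x axis) and in 8505C (y axis), coloured by role, with dashed lines at the limit of -1.5, solid lines at 0 and a grey line where both changes are equal. The 7 genes at the lower left are beyond the limit in both lines, and CDC25B lies at 0.01 and 0.76.

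The kinetochore and centromere genes were all lower in both lines too, with medians of -1.34 (SW1736) and -1.64 (8505C), and of -1.18 against the other reference. NDC80, NUF2 and SPC25 encode subunits of the NDC80 complex, which holds the ends of spindle microtubules. NDC80 (chromosome 18, bases 2571511 to 2616635) was at 45.0 (wt) and 11.9 FPKM (PTX) for SW1736, and 33.1 (wt) and 9.60 FPKM (PTX) for 8505C. SPC25 (chromosome 2, bases 168870891 to 168890434) was at 45.4 (wt) and 8.58 (PTX) FPKM for SW1736 against 33.2 (wt) and 9.66 (PTX) for 8505C, and NUF2 (chromosome 1, bases 163321933 to 163355763) at 30.3 (wt) and 11.02 (PTX) FPKM for SW1736 against 24.7 (wt) and 9.93 (PTX) for 8505C. The 3 subunits had near levels in each library, with SPC25 between 0.719 and 1.01 times NDC80 and NUF2 between 0.674 and 1.03 times. SKA1 (chromosome 18, bases 50375022 to 50394168), of the complex that loads beside NDC80 on microtubules, was at 13.5 (wt) and 5.51 (PTX) FPKM for SW1736 against 10.5 (wt) and 3.14 (PTX) for 8505C. CENPE (chromosome 4, bases 103105806 to 103198409), the kinesin that moves chromosomes to the spindle equator, differed most between the lines, with changes of -0.37 for SW1736 and -1.64 for 8505C. Its levels were 9.74 (wt) and 7.51 (PTX) FPKM for SW1736 against 17.4 (wt) and 5.53 (PTX) for 8505C, so that the lines differed mainly in wt. Against 8505C wt, CENPE was at -1.20 in the library labelled SW1736-PTX. CENPF, a large kinetochore protein of G2 and M phase, had log2 fold changes of -1.34 (SW1736) and -1.30 (8505C), and CENPA, the histone H3 variant that marks the centromere, of -0.70 (SW1736) and -1.13 (8505C).

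Of the 7 genes of the Aurora and Polo kinases and the passenger complex, all were lower, with medians of -1.37 (SW1736) and -1.59 (8505C), and of -1.47 against the other reference. AURKA (chromosome 20, bases 56369389 to 56392295), the kinase of centrosome maturation and spindle assembly, was at 102 (wt) and 39.4 FPKM (PTX) for SW1736, and 104.3 (wt) and 39.0 FPKM (PTX) for 8505C. TPX2 (chromosome 20, bases 31739101 to 31801800), which activates AURKA on spindle microtubules, was at 199 (wt) and 63.6 (PTX) FPKM for SW1736 against 177 (wt) and 57.3 (PTX) for 8505C. The lines were nearly alike in both genes, in wt and in PTX cells. PLK1 (chromosome 16, bases 23678822 to 23690367), the Polo kinase of mitotic entry and spindle formation, was at 94.5 (wt) and 35.1 (PTX) FPKM for SW1736 against 131 (wt) and 35.5 (PTX) for 8505C, log2 fold changes of -1.42 (SW1736) and -1.88 (8505C). AURKB (chromosome 17, bases 8204731 to 8210626) is the kinase of the chromosomal passenger complex, which corrects wrong attachments of microtubules, and it was at 78.4 (wt) and 46.7 (PTX) FPKM for SW1736 against 103.8 (wt) and 38.4 (PTX) for 8505C. Its partner CDCA8 (chromosome 1, bases 37692401 to 37709719), or borealin, was at 49.8 (wt) and 13.9 (PTX) FPKM for SW1736 against 40.7 (wt) and 12.03 (PTX) for 8505C, and was called lower in both lines. INCENP, the scaffold of the complex, had log2 fold changes of -1.32 (SW1736) and -1.30 (8505C), and BIRC5 (chromosome 17, bases 78214196 to 78225635), or survivin, of -1.07 (SW1736) and -1.59 (8505C), at 78.0 (wt) and 37.2 (PTX) FPKM for SW1736 against 115 (wt) and 38.1 (PTX) for 8505C. The ratio of CDCA8 to AURKB was 0.635 (wt) and 0.297 (PTX) for SW1736, against 0.392 (wt) and 0.313 (PTX) for 8505C.

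Among CDK1, its cyclins and the CDC25 phosphatases, 5 of 6 genes were lower in each line and against the other reference. CCNB1 (chromosome 5, bases 69167010 to 69178243), cyclin B1, which with CDK1 drives entry into mitosis, was at 144 (wt) and 59.6 FPKM (PTX) for SW1736, and 171 (wt) and 58.4 FPKM (PTX) for 8505C. CDK1 (chromosome 10, bases 60778331 to 60794852) was at 85.1 (wt) and 27.1 (PTX) FPKM for SW1736 against 68.5 (wt) and 24.9 (PTX) for 8505C, and CCNA2 (chromosome 4, bases 121816444 to 121823933), cyclin A2 of S and G2 phase, at 37.2 (wt) and 17.5 (PTX) FPKM for SW1736 against 55.4 (wt) and 19.0 (PTX) for 8505C. Their log2 fold changes were between -1.65 and -1.08 in SW1736 and between -1.55 and -1.46 in 8505C. CCNB2, cyclin B2, was at 69.7 (wt) and 36.2 (PTX) FPKM for SW1736 against 71.1 (wt) and 29.0 (PTX) for 8505C. CDC25C (chromosome 5, bases 138285265 to 138338355), a phosphatase that activates CDK1, was at 11.6 (wt) and 8.16 (PTX) FPKM for SW1736 against 11.5 (wt) and 6.19 (PTX) for 8505C, among the smaller decreases. CDC25B (chromosome 20, bases 3786772 to 3806121), the phosphatase held to start CDK1 activation in G2, was at 109 (wt) and 109 FPKM (PTX) for SW1736, and 86.3 (wt) and 146 FPKM (PTX) for 8505C, log2 fold changes of 0.01 (SW1736) and 0.76 (8505C). It was thus level in SW1736 and 1.70 times as high in 8505C-PTX as in 8505C wt, without being called, and in 8505C-PTX it was the highest of the 34 genes. Against 8505C wt, CDC25B was at 0.34 in the library labelled SW1736-PTX. The ratio of CDC25B to CDC25C was 9.33 (wt) and 13.4 (PTX) for SW1736, and 7.49 (wt) and 23.6 (PTX) for 8505C.

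The genes that start anaphase were lower to different degrees. CDC20 (chromosome 1, bases 43358955 to 43363202), which activates the anaphase-promoting complex once the checkpoint is satisfied, was the highest of the 34 genes in both wt libraries, at 219 (wt) and 88.5 FPKM (PTX) for SW1736, and 263 (wt) and 63.4 FPKM (PTX) for 8505C. Its log2 fold changes were -1.31 (SW1736) and -2.05 (8505C), and -1.57 with 8505C wt as the reference of the library labelled SW1736-PTX. PTTG1 (chromosome 5, bases 160421807 to 160428744), or securin, the inhibitor of separase, was at 193 (wt) and 152 (PTX) FPKM for SW1736 against 233 (wt) and 109 (PTX) for 8505C, and was the highest of the 34 genes in SW1736-PTX. ESPL1 (chromosome 12, bases 53268299 to 53293643), the separase that cleaves cohesin, was at 11.1 (wt) and 4.51 (PTX) FPKM for SW1736 against 10.7 (wt) and 4.55 (PTX) for 8505C. The ratio of PTTG1 to ESPL1 was 17.5 (wt) and 33.7 (PTX) for SW1736, and 21.8 (wt) and 24.0 (PTX) for 8505C.

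Among the proliferation markers, MKI67 and FOXM1 had large decreases and TOP2A smaller ones. MKI67 (chromosome 10, bases 128096661 to 128126204) encodes Ki-67, the coat protein of mitotic chromosomes that pathologists stain to count cycling cells. It was at 109.5 (wt) and 19.9 FPKM (PTX) for SW1736, and 62.8 (wt) and 18.0 FPKM (PTX) for 8505C, so that wt levels were 5.51-fold (SW1736) and 3.49-fold (8505C) higher. FOXM1 (chromosome 12, bases 2857681 to 2877155), the transcription factor of G2 and M phase genes, was at 106 (wt) and 20.8 (PTX) FPKM for SW1736 against 69.6 (wt) and 19.3 (PTX) for 8505C, log2 fold changes of -2.34 (SW1736) and -1.84 (8505C). In SW1736, MKI67 had the lowest log2 fold change of the 34 genes. With 8505C wt as reference, the library labelled SW1736-PTX was at -1.65 for MKI67 and -1.74 for FOXM1, so both were still called lower. TOP2A (chromosome 17, bases 40388521 to 40417950), the topoisomerase that untangles chromosomes before they separate, was at 90.5 (wt) and 71.6 (PTX) FPKM for SW1736 against 146 (wt) and 67.8 (PTX) for 8505C, log2 fold changes of -0.34 (SW1736) and -1.10 (8505C). With 8505C wt as the reference of the library labelled SW1736-PTX, TOP2A was at -1.03. The ratio of TOP2A to MKI67 was 0.827 in SW1736 wt, 2.32 in 8505C wt, and 3.60 and 3.77 in SW1736-PTX and 8505C-PTX.

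The lines were also compared with each other within each condition. Between the wt libraries, none of the 34 genes was called in either direction (17.6% of all 13457 genes compared were), and the differences ranged from -0.85 for BUB3 to 1.06 for MAD2L1, given as 8505C wt relative to SW1736 wt. Between the PTX libraries, none was called either (7.79% of 13986 genes), and the differences ranged from -0.79 for SKA1 to 0.42 for CDC25B. Of the 34 genes, 23 were within 0.5 on the log2 scale between the wt libraries and 32 between the PTX libraries. The standard deviation of these differences over the genes was 0.49 between wt and 0.24 between PTX libraries. The median size of the difference over the 34 genes was 0.37 between wt and 0.19 between PTX libraries, and over all genes compared 0.56 and 0.33. The PTX libraries include the one labelled SW1736-PTX, which stood with 8505C in 4 lineage markers, and the part of this in their smaller differences was not tested. In 26 of the 34 genes 8505C-PTX was the lower of the PTX libraries, where it was the lower in 50.5% of all genes compared. With each PTX library set against its own wt library, the decrease was larger in 8505C than in SW1736 for 19 of the 34 genes. It was smaller for the others but CDC25B, which was not lower in either line.

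Outside the 34 genes, 112 further genes of the cell cycle in 5 lists were examined. Of 32 other kinetochore and centromere genes, 12 were called lower in SW1736 and 17 in 8505C, 9 of them in both lines, and none was called higher. Of all genes compared, 10.2%, 5.89% and 2.41% were called lower in SW1736, in 8505C and in both, against which the counts of each list are to be read. SKA3, a partner of SKA1, was at 20.6 (wt) and 2.58 (PTX) FPKM for SW1736 against 21.9 (wt) and 1.53 (PTX) for 8505C, log2 fold changes of -2.95 (SW1736) and -3.76 (8505C). CENPI and CENPK encode proteins of the inner kinetochore network. CENPI was at 16.8 (wt) and 2.42 (PTX) FPKM for SW1736 against 8.77 (wt) and 1.56 (PTX) for 8505C, and CENPK at 25.4 (wt) and 6.56 (PTX) FPKM for SW1736 against 20.5 (wt) and 4.99 (PTX) for 8505C. The medians of the list were -1.31 in SW1736 and -1.56 in 8505C, close to those of the 34 genes, and 9 of its genes were called lower against 8505C wt in the library labelled SW1736-PTX. Of 31 genes of mitotic entry, exit and cytokinesis, 11 and 19 were called lower and 8 in both lines. CDC25A, the CDC25 phosphatase of G1 and S phase, had log2 fold changes of -2.34 (SW1736) and -3.16 (8505C), and BORA, the activator of Aurora A, of -2.13 (SW1736) and -2.52 (8505C). PKMYT1, an inhibitory kinase of CDK1, had -1.91 (SW1736) and -1.82 (8505C), but with 8505C wt as the reference of the library labelled SW1736-PTX it was at -1.09 and no longer called. In that comparison 10 genes of the list were called lower, with a median of -1.40, against -1.14 (SW1736) and -1.61 (8505C). Of 17 genes of cohesin and condensin, 4 were called lower in SW1736 and 9 in 8505C, with medians of -1.07 (SW1736) and -1.51 (8505C), and 3 against the other reference. NCAPH and SMC4, subunits of condensin, had log2 fold changes of -1.74 (SW1736) and -2.09 (8505C) and of -1.87 (SW1736) and -1.72 (8505C), and PDS5B, a regulator of cohesin, of -1.68 (SW1736) and -1.63 (8505C).

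Of 17 genes of the anaphase-promoting complex and its partners, none was called lower in SW1736 and 2 were in 8505C, where 5.89% of all genes were, namely UBE2C, with -1.39 (SW1736) and -1.63 (8505C), and UBE2S, with -1.28 (SW1736) and -1.61 (8505C), the ubiquitin-conjugating enzymes that work with it. ANAPC10, a core subunit, was called higher in SW1736, with 2.61 (wt) and 8.65 (PTX) FPKM for SW1736 against 9.82 (wt) and 8.13 (PTX) for 8505C, but was at -0.18 with 8505C wt as the reference. These 3 genes were named after their values were seen. The list's medians were -0.27 in SW1736 and -0.52 in 8505C, and -0.47 against the other reference. The G1 cyclins, their kinases and the CDK inhibitors went in both directions. In SW1736, 4 of 15 were called lower and 2 higher, and in 8505C 4 of 14 were called lower and 2 higher. CCNE1 and CCNE2, the E cyclins of the passage from G1 to S phase, and CCND3, cyclin D3, were called lower in both lines. CCNE1 was at 12.9 (wt) and 1.70 (PTX) FPKM for SW1736 against 4.95 (wt) and 0.652 (PTX) for 8505C. CCNE2 was at 14.8 (wt) and 4.09 (PTX) FPKM for SW1736 against 23.6 (wt) and 3.80 (PTX) for 8505C, and CCND3 at 35.6 (wt) and 8.15 (PTX) FPKM for SW1736 against 44.0 (wt) and 8.49 (PTX) for 8505C. With 8505C wt as the reference of the library labelled SW1736-PTX, CCNE1 was at -1.49, just short of the limit, and CCNE2 and CCND3 were still called, the latter at -2.42. CDKN1C (chromosome 11, bases 2883218 to 2885765), the CDK inhibitor p57, was the gene of this list called higher in both lines, at 0.878 (wt) and 14.1 FPKM (PTX) for SW1736, and 0.847 (wt) and 13.8 FPKM (PTX) for 8505C, where 15.7% of all genes in SW1736 and 15% in 8505C were called higher. It was also higher against 8505C wt in the library labelled SW1736-PTX, by 3.91 on the log2 scale. CDKN2A, another inhibitor of the list, was called lower in SW1736, at 143 (wt) and 49.0 (PTX) FPKM, a log2 fold change of -1.54. For 8505C it was at 63.2 (wt) and 70.7 (PTX) FPKM. With 8505C wt as the reference of the library labelled SW1736-PTX, CDKN2A was at -0.36 and not called. The inhibitors p21 (CDKN1A) and p27 (CDKN1B) were not called in either line. CDKN2A, CDKN1A and CDKN1B were named after their values were seen. CDKN1A was at 8.16 (wt) and 18.5 (PTX) FPKM for SW1736 against 12.97 (wt) and 13.5 (PTX) for 8505C, and CDKN1B at 20.2 (wt) and 28.3 (PTX) FPKM for SW1736 against 11.9 (wt) and 31.4 (PTX) for 8505C.

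**Figure D5:**
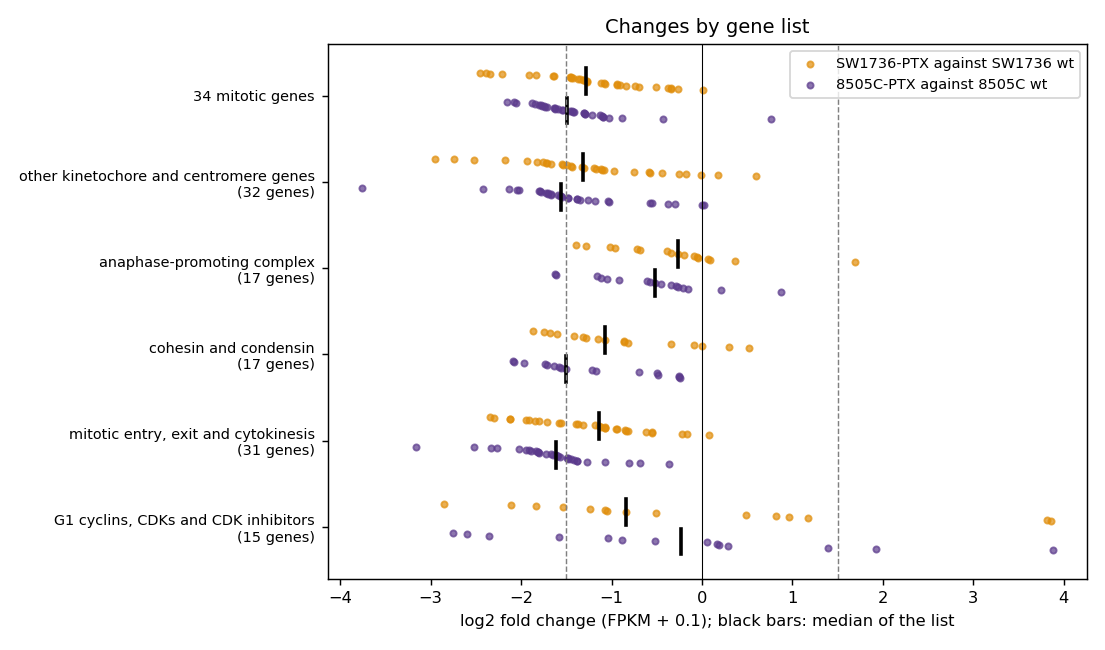
Log2 fold changes of the 34 mitotic genes and of each of the 5 further lists in SW1736 (orange) and 8505C (purple), 1 point per gene above the FPKM limit, with black bars at the medians and dashed lines at 1.5 in either direction. The kinetochore, condensin and mitotic entry lists lie to the left of 0 like the 34 genes, while the anaphase-promoting complex has medians of -0.27 and -0.52 and the G1 list spans both sides.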

How the data were processed

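mRNA of SW1736 wt, SW1736-PTX, 8505C wt and 8505C-PTX cells was sequenced as 1 library each (single-end, 75 bp). Per the methods, the authors demultiplexed reads with bcl2fastq 2.20, trimmed them with Cutadapt and ERNE, aligned them with STAR to hg38 and quantified gene loci with StringTie. The annotation was not given in the sources used here. The deposited tables hold coverage per base, FPKM and TPM, and no counts. Coverage, a depth-dependent signal deposited by the authors, was used only to derive depth from its ratio to FPKM. The deposited FPKM values of rows sharing a gene name were summed. The deposited TPM values served as an alternative.

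Genes above 0.5 FPKM in at least 1 library of a pair were compared with a pseudocount of 0.1, which understates changes of low genes, and called beyond 1.5 on the log2 scale. No model or p-value was used. The median log2 fold change of all genes was 0.01 in SW1736 and 0.11 in 8505C, and values were not centred on it. Gene lists were fixed by name (6 genes were found under older symbols), and the members and lists were chosen with earlier results of these data known. All 34 members are named. Of the other lists, the genes called the same way in both lines were named, at most 3 in each direction by the smaller change. Motifs were searched in RefSeq windows (GRCh38.p14), and the shares count genes with a match in any window. The scripts ran in Python 3.11.15 with pandas 2.3.3, NumPy 2.4.6 and, for plots, matplotlib 3.10.9.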

Additional observations from a re-analysis of the deposited data

How the results depend on the processing

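Limits of this design come first: 1 library per condition leaves the spread between cultures unknown, and the SW1736 results rest on a library that resembles 8505C in lineage markers. The labels give no replicate numbers, and the lines were not used as replicates of each other. The median log2 fold change of the 34 genes stayed between -1.35 and -1.21 in SW1736 and between -1.60 and -1.45 in 8505C over the alternatives tried (pseudocounts of 1 and 0.01, other FPKM limits, TPM, centring on all genes, the highest row per gene name, and 8505C wt as the reference of SW1736-PTX). The number of genes called lower was between 8 and 12 in SW1736 and between 14 and 21 in 8505C under these, with none called higher. Centring, which shifts 8505C by 0.11, gave the 21. Only a limit of 1 in place of 1.5 moved a number of calls by more than 1.5 times: 22 of the 34 genes were then called lower in SW1736, 31 in 8505C and 1, MAD2L1, between the wt libraries (higher in 8505C wt), and 61 of the 112 further pathway genes in SW1736. At that limit 18.2% of all genes compared were lower in SW1736 and 12.9% in 8505C. Of the values of single members under each alternative, 531 kept their call or stayed without one, 41 gained a call, 6 lost it and none of the called changes turned direction. The 3 calls lost with 8505C wt as reference were those of NDC80, TPX2 and CDK1, and 7 members gained a call with it.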

Other observations

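The PTX libraries differed from each other in a few cell cycle genes outside the 34, named here after their values were seen. SMC2 and NCAPG2, subunits of condensin, were at 41.2 and 45.1 FPKM in SW1736-PTX and at 7.97 and 8.38 in 8505C-PTX, where the wt libraries held 41.2 and 48.1 FPKM in SW1736 wt and 34.1 and 33.2 in 8505C wt. They were thus close to wt in the library labelled SW1736-PTX, and called lower in 8505C-PTX, by log2 fold changes of -2.08 and -1.97, while NCAPH, another condensin subunit, was called lower in both. CDK6, a G1 kinase, was at 31.1 FPKM in SW1736-PTX and 8.63 in 8505C-PTX, against 17.7 and 17.8 in the wt libraries. CCND2, cyclin D2, was listed at 0 in both wt libraries and was at 1.30 FPKM in SW1736-PTX and 0.0733 in 8505C-PTX. CDKN2B, the CDK inhibitor p15, was called higher in 8505C, from 1.13 to 4.55 FPKM, where SW1736 wt held 7.36 and SW1736-PTX 4.07 FPKM. None of these differences has a replicate, and their origin was not tested.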
